A study of Arabidopsis thaliana with 48 samples.

Results

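The 36 genes described here are nuclear genes of Arabidopsis thaliana that build and steer the transcription machinery of the plastid, or that help its products to assemble. They were taken by their locus identifiers from a list that names proteins of the transcriptionally active chromosome (PTAC genes), the sigma factors SIG1 to SIG6, polymerase-associated proteins, RPOT genes, GUN1 and HCF genes, out of 33553 genes in the tables. The list was drawn up with the acc1-5 and WT levels in view, so the levels and calls of its members below describe them and are no test of the list. The groups were 12-day-old acc1-5 seedlings and WT seedlings of the Col-0 ecotype, each with 3 RNA libraries, grown in 16 h of light and 8 h of dark. acc1-5 is a mutant allele of ACC1, the gene of the cytosolic acetyl-CoA carboxylase, and the labels name no other allele in these seedlings. A spray with 20 µM estradiol or DMSO appears in the protocol text of all samples, and which RNA seedlings received it is not stated. Each library is bulk RNA of whole seedlings, and the labels do not say how many seedlings went into one.

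The plastid carries its own small genome, and most of its genes are read by a bacterial-type polymerase whose core subunits are encoded in the plastid itself. The nucleus supplies the rest: sigma factors that bring this polymerase to its promoters, a shell of associated proteins without which seedlings stay pale, and phage-type polymerases that read other plastid promoters. HCF proteins act one step later, on single plastid mRNAs or on the photosystem complexes, and their mutants show high chlorophyll fluorescence because photosynthetic electron transport is broken. GUN1 is a plastid protein needed for signals that tell the nucleus about the state of the plastid.

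The tables give 1 level per genotype in FPKM, a count of fragments per length of transcript and per size of library, with a lower and an upper bound by the authors. They hold no value for a single library, so the libraries' spread cannot be seen directly. Whether these bounds and the authors' own test reflect it is unknown, since how the libraries were combined is not stated. Sequencing depth is unknown, and the median half-width of the bounds of the 36 genes was 34.0% of the level in acc1-5 and 34.8% in WT. ACC1 itself (AT1G36160) had 33.4 FPKM in acc1-5 and 33.1 FPKM in WT, and since the labels do not say whether the allele alters the transcript, this is no check of the genotype. Markers of other tissues differed between the genotypes. All 6 root hair markers rose, with a summed level of 107 FPKM in acc1-5 and 12.1 FPKM in WT, and all 10 root endodermis and suberin markers rose, with 103 FPKM in acc1-5 and 35.3 FPKM in WT. All 9 leaf mesophyll markers stood below WT and 1 of them was called, with a summed level of 16440 FPKM in acc1-5 and 28399 FPKM in WT, and no marker of these 3 lists was at 0. The part of these tissue markers in the results below was not tested. In bulk seedlings, fewer green cells and less RNA per green cell cannot be told apart.

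Across the 36 genes the level in acc1-5 was below WT for 35 and above WT for 1, where 50.7% of all tested genes were below WT. A gene was called where the authors' program had tested its main transcript, the one with the highest mean level, and gave a q-value under 0.05. By that rule 20 of the 36 genes fell in acc1-5 and 0 rose, in the authors' deposited table, where 9.04% of all 20509 tested genes were called lower and 10.9% higher. Among the 13868 tested genes with a mean level in the same range as these genes, 10.7% were called lower. At a q-value under 0.01, 11 of the 36 genes fell, against 5.7% of all tested genes, and at a q-value under 0.10, 24 fell, against 11.3%. The median log2 fold change of the 36 genes was -0.55, or 0.681-fold, with quartiles of -0.69 and -0.36 and a range of -0.97 to 0.45. Over all tested genes that median was -0.01. The differences were moderate in size: 0 of the 36 genes reached a 2-fold difference, and the share of all tested genes that did was not computed. The bounds of the 2 genotypes overlapped for every one of the 36. Only 6.88% of all tested genes had bounds that did not overlap, so this overlap is not particular to the set. The summed level of the 36 genes was 1851 FPKM in acc1-5 and 2885 FPKM in WT, so acc1-5 held 64.2% of the WT sum. Summed over the main transcripts of all genes, acc1-5 held 93.5% of the WT sum.

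**Figure D1:**
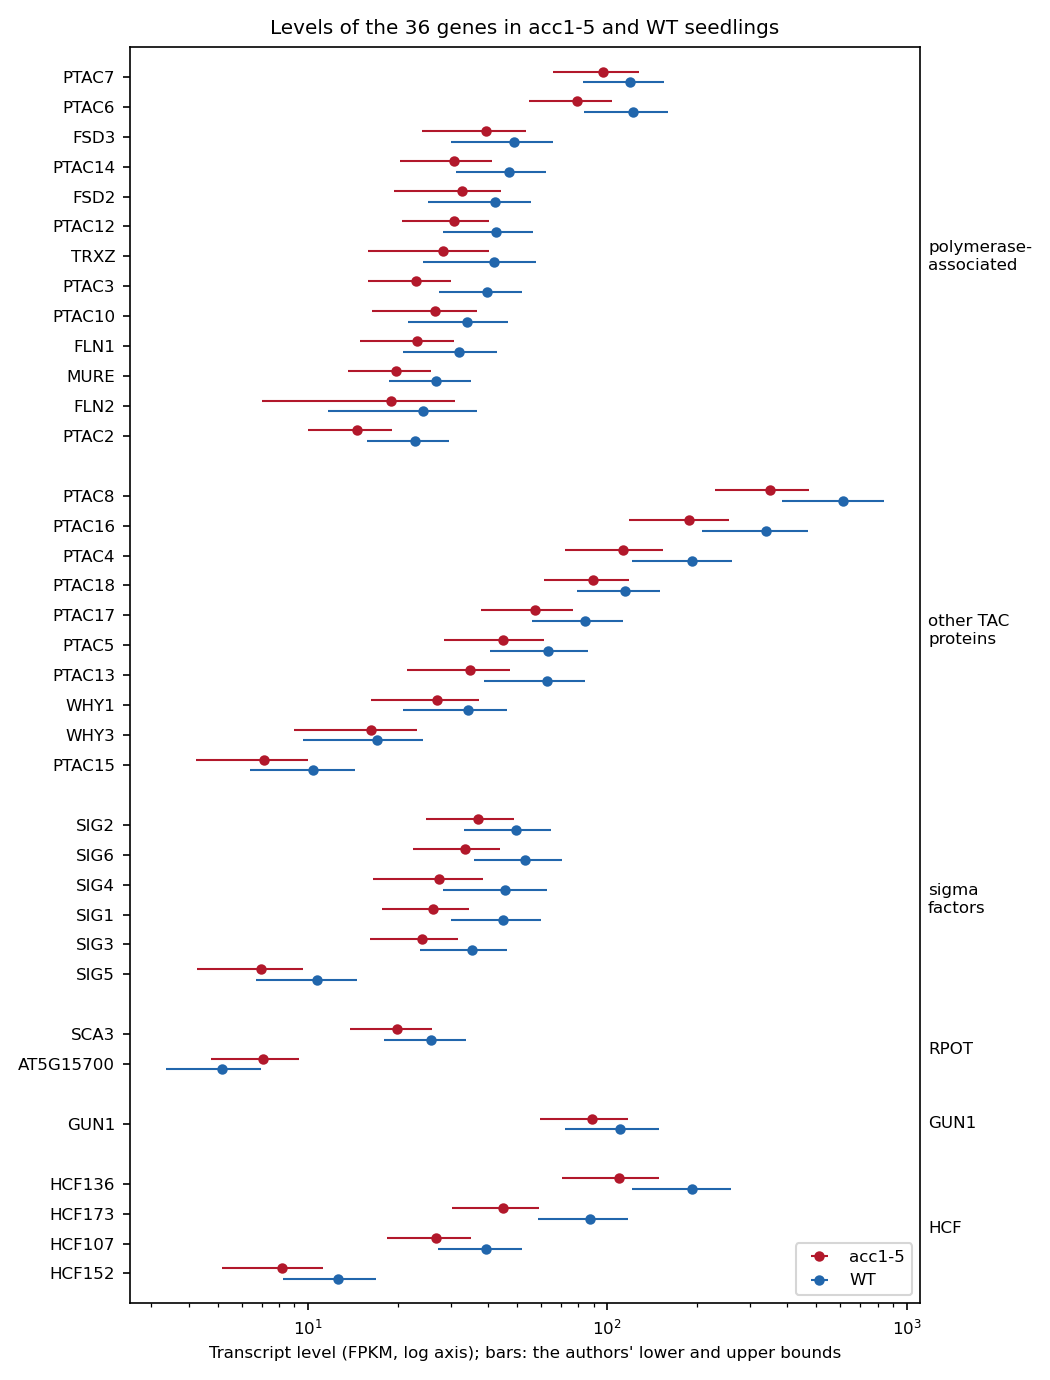
Level of each of the 36 genes in FPKM on a log axis, grouped by role, with acc1-5 in red above WT in blue; the points are the authors' values per genotype and the bars their lower and upper bounds. The acc1-5 point lies left of the WT point for 35 genes and right of it for AT5G15700, and the bars of the genotypes overlap for all 36.

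The plot of levels by gene shows how widely these genes are spread in abundance and how similar their order was in both genotypes. PTAC8 was the most abundant in each, and the highest level was 50.0 times the lowest in acc1-5 and 119 times the lowest in WT. PTAC8, PTAC16, PTAC4 and HCF136 were the 4 most abundant in both, and together they made up 41.0% of the summed level in acc1-5 and 46.3% in WT. At the low end were PTAC15, HCF152, SIG5 and AT5G15700. Neighbours in this order lay within each other's bounds in 31 of 35 pairs in acc1-5 and 30 of 35 in WT, so most of the order is not resolved. Only 4 genes shifted by more than 3 places between the genotypes, and the largest shift was 6 places.

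The proteins bound to the bacterial-type polymerase form the first and largest role, with 13 genes. All 13 had lower levels in acc1-5, and 5 of them fell by the authors' test: PTAC3, PTAC2, PTAC6, PTAC14 and TRXZ. The summed level of the role was 464 FPKM in acc1-5 and 642 FPKM in WT, with a median log2 fold change of -0.46.

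PTAC3 (AT3G04260, chromosome 3, 1123023 to 1127515 on TAIR10) had 23.0 FPKM in acc1-5 (bounds 15.9 to 30.0) and 39.7 FPKM in WT (27.5 to 52.0). PTAC2, a pentatricopeptide repeat protein, had 14.5 FPKM in acc1-5 (9.99 to 19.1) and 22.7 FPKM in WT (15.8 to 29.7). These bounds overlap by a small stretch for both genes, and the acc1-5 value lies below the lower WT bound in each case. PTAC6, one of the most abundant of this role, had 79.4 FPKM in acc1-5 (54.8 to 104) and 122 FPKM in WT (83.7 to 160). PTAC14, which carries a SET domain, had 30.8 FPKM in acc1-5 (20.4 to 41.0) and 47.0 FPKM in WT (31.2 to 62.5). TRXZ is a plastid thioredoxin that binds the fructokinase-like proteins FLN1 and FLN2, and it had 28.3 FPKM in acc1-5 (15.9 to 40.1) and 42.0 FPKM in WT (24.3 to 57.8). In the authors' deposited table, log2 fold changes were -0.79 for PTAC3 (q = 7.46e-04), -0.64 for PTAC2 (q = 0.00769), -0.62 for PTAC6 (q = 0.00570), -0.61 for PTAC14 (q = 0.010) and -0.57 for TRXZ (q = 0.0381). PTAC3 thus had the largest absolute log2 fold change of this role.

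The other 8 polymerase-associated genes were not called. PTAC12, also known as HEMERA and active in phytochrome signalling in the nucleus as well, had 30.9 FPKM in acc1-5 and 42.5 FPKM in WT (q = 0.0719 in the authors' deposited table). It was the uncalled gene nearest to the threshold, and the nearest called one was PTAC5 (q = 0.0470 in the authors' deposited table). FLN1 and FLN2, the fructokinase-like partners of TRXZ, had log2 fold changes of -0.46 (q = 0.0827) and -0.35 (q = 0.686) in the authors' deposited table. FLN1 stood at 23.1 FPKM in acc1-5 and 31.9 FPKM in WT. FLN2 stood at 19.0 FPKM in acc1-5 (7.01 to 30.9) and 24.2 FPKM in WT (11.7 to 36.7), with the widest bounds of the 36 genes relative to its level in acc1-5. Its locus is shared with other genes, AT1G69210 and AT1G69220, both of which the authors' program marked as having too few data.

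MURE, the plant relative of a bacterial cell wall ligase, had 19.8 FPKM in acc1-5 and 26.9 FPKM in WT (log2 fold change -0.44, q = 0.0861 in the authors' deposited table). The iron superoxide dismutases FSD2 and FSD3, which remove superoxide in the plastid nucleoid, had close values. FSD2 had 32.8 FPKM in acc1-5 and 42.0 FPKM in WT, and FSD3 had 39.2 FPKM in acc1-5 and 48.9 FPKM in WT. Their log2 fold changes were -0.36 (q = 0.25) and -0.32 (q = 0.321) in the authors' deposited table. PTAC10, an RNA-binding protein with an S1 domain, had 26.5 FPKM in acc1-5 and 34.0 FPKM in WT (q = 0.340 in the authors' deposited table). PTAC7 had the smallest absolute log2 fold change of the role, -0.29 (q = 0.358 in the authors' deposited table). It had 97.1 FPKM in acc1-5 and 119 FPKM in WT. None of these 8 differences passed the authors' threshold, which does not show that the levels were alike.

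The second role holds 10 genes whose proteins were found in the transcriptionally active chromosome without being among the tightly bound polymerase partners. It includes the most abundant genes of the set, several of which act at the thylakoid membrane. All 10 had lower levels in acc1-5 and 6 of them fell. Their summed level was 927 FPKM in acc1-5 and 1530 FPKM in WT, with a median log2 fold change of -0.55.

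PTAC16 (AT3G46780, chromosome 3, 17228673 to 17231201 on TAIR10), a protein attached to thylakoids, had 187 FPKM in acc1-5 (119 to 255) and 340 FPKM in WT (207 to 470). PTAC8, also called CURT1B, bends thylakoid membranes at the margins of grana, and it had 349 FPKM in acc1-5 (228 to 470) and 612 FPKM in WT (382 to 842). PTAC4, also called VIPP1, maintains thylakoid and envelope membranes, and it had 113 FPKM in acc1-5 (72.1 to 153) and 191 FPKM in WT (121 to 262). These 3 genes stood at 55.1% of WT for PTAC16, 57.0% for PTAC8 and 59.0% for PTAC4. Genes of other roles lay in the same range, such as PTAC3 at 57.8% and SIG1 at 58.0%. PTAC13, which resembles the bacterial elongation factor NusG, had 34.9 FPKM in acc1-5 (21.5 to 47.4) and 62.8 FPKM in WT (38.8 to 84.1). In the authors' deposited table, the fold changes on the log2 scale were -0.86 for PTAC16 (q = 0.00246), -0.85 for PTAC13 (q = 7.46e-04), -0.81 for PTAC8 (q = 7.46e-04) and -0.76 for PTAC4 (q = 0.00195). In size these 4 are among the leading differences of the set.

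PTAC17 had 57.5 FPKM in acc1-5 (37.9 to 76.6) and 84.5 FPKM in WT (55.9 to 113), and PTAC5 had 44.9 FPKM in acc1-5 (28.5 to 61.3) and 63.3 FPKM in WT (40.5 to 86.0). Both were called with smaller differences, at log2 fold changes of -0.56 (q = 0.0209) and -0.49 (q = 0.0470) in the authors' deposited table. PTAC5 had the smallest absolute log2 fold change of any called gene among the 36. PTAC15, of the mTERF family of organelle nucleic acid-binding proteins, had a larger one, -0.55, without a call (q = 0.0965 in the authors' deposited table). Its levels were low, 7.13 FPKM in acc1-5 (4.21 to 10.0) and 10.4 FPKM in WT (6.40 to 14.4). The order of the calls was thus not the order of the fold changes.

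PTAC18 had 89.9 FPKM in acc1-5 and 114 FPKM in WT (q = 0.247 in the authors' deposited table). The Whirly proteins WHY1 and WHY3 bind single-stranded DNA and stabilise the plastid genome. WHY1 had 27.1 FPKM in acc1-5 and 34.3 FPKM in WT, a log2 fold change of -0.34 (q = 0.289 in the authors' deposited table). WHY3 was the closest to equal of all 36 genes, with 16.2 FPKM in acc1-5 (8.99 to 23.1), 17.0 FPKM in WT (9.61 to 24.2) and a log2 fold change of -0.06 (q = 0.946 in the authors' deposited table).

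**Figure D2:**
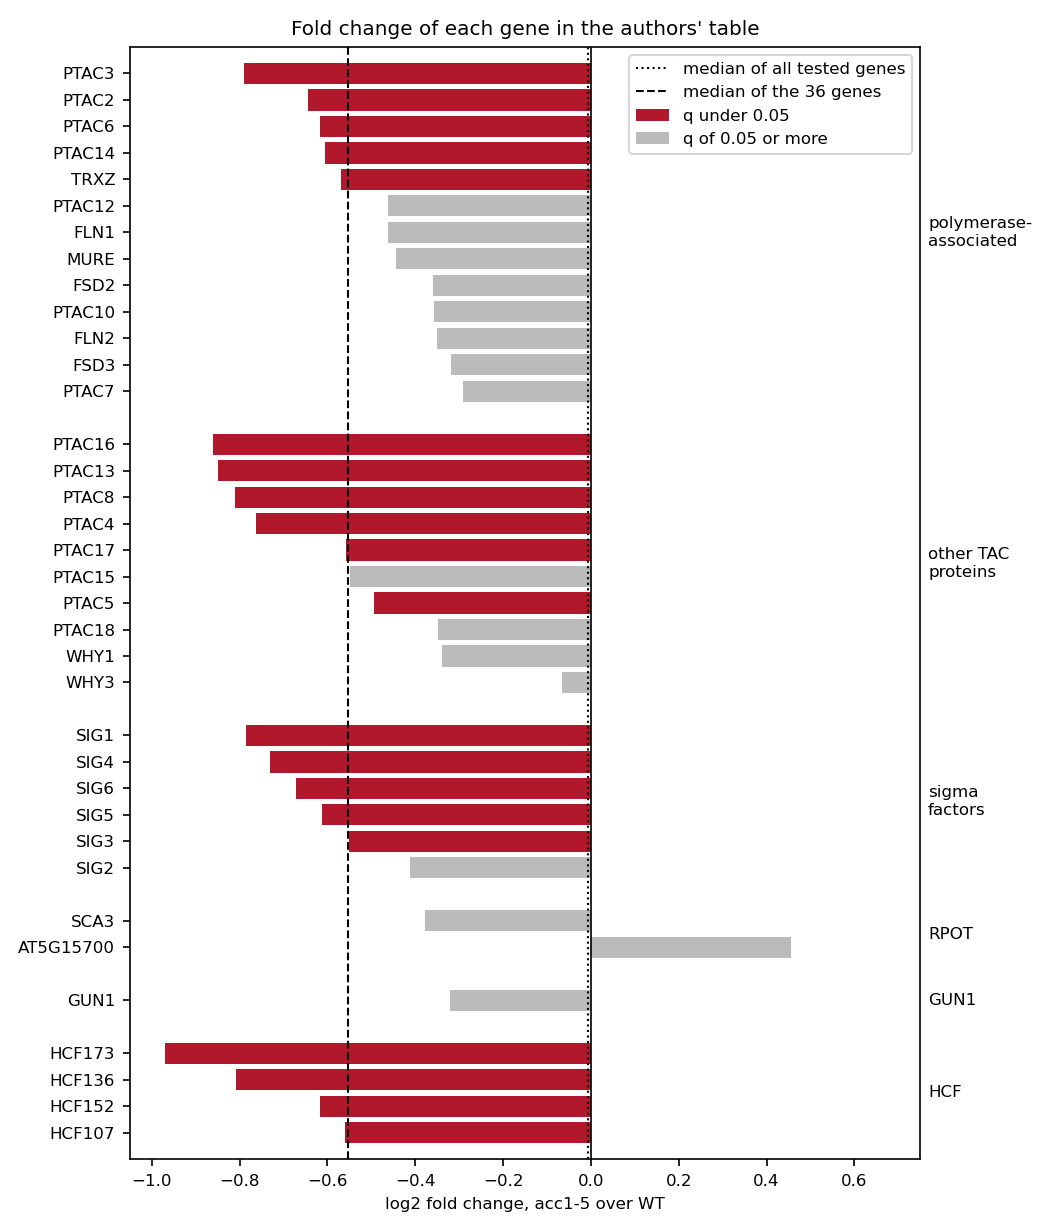
The log2 fold change of each of the 36 genes, acc1-5 over WT, as bars from 0, grouped by role; red bars have a q-value under 0.05 in the authors' deposited table and grey bars do not. The dashed line is the median of the 36 genes at -0.55 and the dotted line the median of all tested genes at -0.01; 20 bars are red, and AT5G15700 has the 1 bar right of 0.

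Sigma factors give the polymerase its choice of promoter, and 5 of the 6 genes fell in acc1-5. Their summed level was 155 FPKM in acc1-5 and 239 FPKM in WT, and their median log2 fold change was -0.64. SIG1 (AT1G64860, chromosome 1, 24097913 to 24100952 on TAIR10) had 26.1 FPKM in acc1-5 (17.7 to 34.4) and 44.9 FPKM in WT (29.9 to 59.9). SIG4, needed for transcription of the plastid ndhF gene, had 27.4 FPKM in acc1-5 (16.4 to 38.4) and 45.5 FPKM in WT (28.2 to 62.7). For both, the acc1-5 value was below the lower bound of WT. The SIG4 locus is shared with AT5G13720, which had 21.5 FPKM in acc1-5 and 34.4 FPKM in WT. This neighbour was not called (log2 fold change -0.68, q = 0.151 in the authors' deposited table). Its values ran in the same direction as those of SIG4.

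SIG6, which acts broadly early in seedling development, had 33.3 FPKM in acc1-5 (22.4 to 43.6) and 53.1 FPKM in WT (35.8 to 70.4), the highest sigma factor level in WT. SIG5, which responds to blue light and stress and reads a light-dependent promoter of psbD, was the least abundant, with 6.98 FPKM in acc1-5 (4.26 to 9.64) and 10.7 FPKM in WT (6.71 to 14.6). SIG3, linked to psbN transcription, had 24.1 FPKM in acc1-5 (16.2 to 31.8) and 35.2 FPKM in WT (23.7 to 46.2). For the called sigma factors, the authors' deposited table gave log2 fold changes of -0.79 for SIG1 (q = 0.00138), -0.73 for SIG4 (q = 0.0125), -0.67 for SIG6 (q = 0.00349), -0.61 for SIG5 (q = 0.0391) and -0.55 for SIG3 (q = 0.0218). Taken over all 6 sigma factors, the log2 fold changes ran from -0.79 to -0.41, while the levels differed several-fold. SIG2, which drives plastid tRNA genes, was the uncalled one, with 37.1 FPKM in acc1-5 (24.9 to 48.6) and 49.4 FPKM in WT (33.1 to 65.0), at a log2 fold change of -0.41 (q = 0.119 in the authors' deposited table). It was the most abundant sigma factor in acc1-5. Whether SIG2 differed less than the other sigma factors was not tested.

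The RPOT genes encode single-subunit polymerases that resemble those of phages, and neither of the 2 listed here was called. SCA3 (AT2G24120), which encodes a plastid phage-type polymerase, had 19.9 FPKM in acc1-5 (13.9 to 25.9) and 25.8 FPKM in WT (17.9 to 33.7), a log2 fold change of -0.38 (q = 0.171 in the authors' deposited table). AT5G15700 (chromosome 5, 5115300 to 5121840 on TAIR10) had 7.05 FPKM in acc1-5 (4.73 to 9.37) and 5.15 FPKM in WT (3.35 to 6.94), a log2 fold change of 0.45 (q = 0.121 in the authors' deposited table). It was the 1 gene of the 36 with a higher value in acc1-5, and the lowest of all in WT. MGP3 (AT1G68990), a mitochondrial relative that is outside the set, had 9.93 FPKM in acc1-5 and 8.64 FPKM in WT (q = 0.676 in the authors' deposited table).

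GUN1, a pentatricopeptide repeat protein, had 88.6 FPKM in acc1-5 (59.7 to 117) and 111 FPKM in WT (72.1 to 149). Its log2 fold change was -0.32 (q = 0.369 in the authors' deposited table), among the smaller differences of the set.

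All 4 HCF genes fell, and HCF173 had the largest absolute log2 fold change of the whole set. HCF173 (AT1G16720, chromosome 1, 5723088 to 5727312 on TAIR10), which starts translation of the psbA mRNA for a reaction centre protein of photosystem II, had 44.8 FPKM in acc1-5 (30.3 to 59.3) and 87.8 FPKM in WT (58.7 to 117). Its bounds overlapped by less than 1 FPKM. HCF136, a lumen protein needed early in the assembly of photosystem II, had 110 FPKM in acc1-5 (70.4 to 149) and 192 FPKM in WT (121 to 260). HCF152, which binds RNA between psbH and petB, had 8.19 FPKM in acc1-5 (5.17 to 11.2) and 12.6 FPKM in WT (8.23 to 16.9). HCF107, which protects the psbH mRNA, had 26.7 FPKM in acc1-5 (18.3 to 35.2) and 39.4 FPKM in WT (27.1 to 51.8). The authors' deposited table gave log2 fold changes of -0.97 for HCF173 (q = 7.46e-04), -0.81 for HCF136 (q = 7.46e-04), -0.62 for HCF152 (q = 0.0341) and -0.56 for HCF107 (q = 0.0256). HCF173 and HCF136 thus had the larger differences of the role. The HCF173 locus is shared with AT1G16730, at 7.53 FPKM in acc1-5 and 5.74 FPKM in WT, and the HCF152 locus with AT3G09660, at 3.67 FPKM in acc1-5 and 2.29 FPKM in WT. Neither neighbour was called, and their values ran in the other direction from those of the HCF genes.

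**Figure D3:**
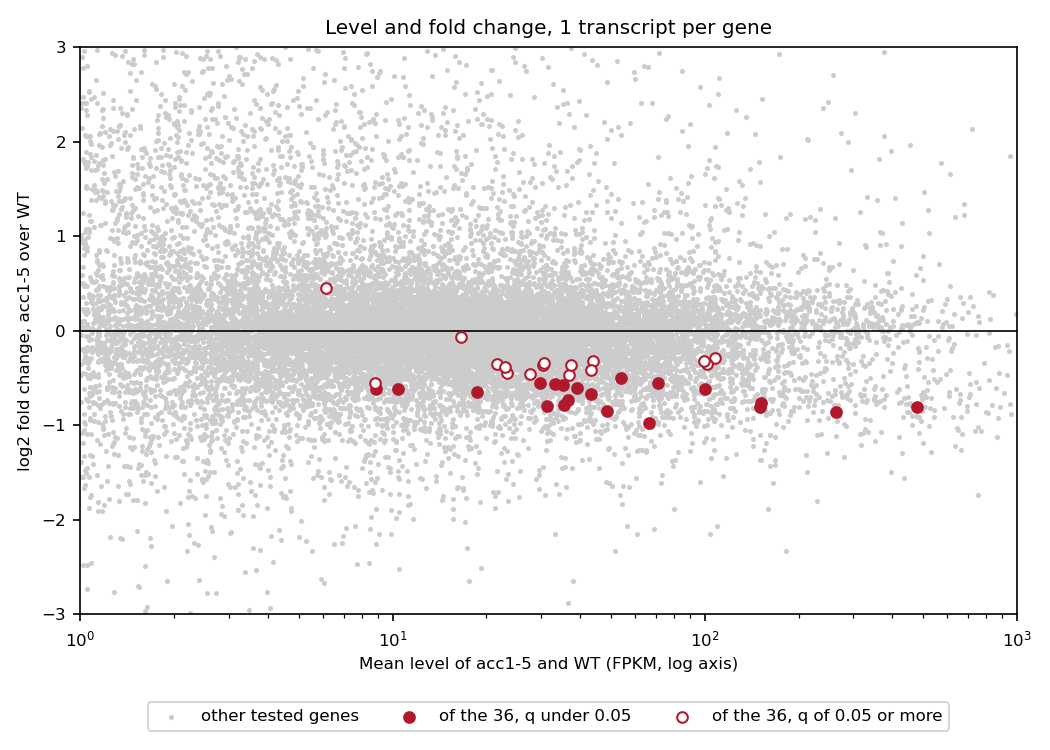
Mean level of acc1-5 and WT in FPKM (log axis) against the log2 fold change, acc1-5 over WT, for 18842 tested genes in grey and the 36 genes in red, filled where the q-value in the authors' deposited table is under 0.05; 295 tested genes lie outside the axes and genes with a mean level under 1 FPKM were not drawn. The red points run below 0 across the whole range of levels, with AT5G15700 above 0 at the lowest mean level.

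The plot of fold change against level places the 36 genes within the cloud of all tested genes. Their mean levels ran between 6.10 and 481 FPKM, and more abundant members tended to have more negative fold changes, with a Spearman rho of -0.32 and a Pearson r of -0.46 on log2 levels across the 36 genes. AT5G15700, with the lowest mean level and the 1 fold change above 0, adds to both values, which were not computed without it. Over all tested genes rho was -0.13. Genes of the same libraries are not independent, and the mean level enters the fold change itself, so these values only describe the plot. Transcript length, 628 to 3760 bases, showed a rho of -0.03 with the fold change. The 18 more abundant genes had 11 calls and a median log2 fold change of -0.58, and the 18 less abundant ones had 9 calls and a median of -0.55. Lower values were thus found in both ranges of abundance. The genes lie on all 5 nuclear chromosomes, with 10, 7, 9, 2 and 8 genes on chromosomes 1 to 5, of which 6, 2, 7, 2 and 3 were called.

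The picture rests mostly on main transcripts, since 27 of the 36 genes have a single transcript in the tables and 9 have a second one. Only for PTAC10 was the second transcript a sizeable share, with 28.0% of the gene's level in acc1-5 and 30.6% in WT. It had 10.3 FPKM in acc1-5 and 15.0 FPKM in WT (q = 0.387 in the authors' deposited table). The second HCF107 transcript held 4.08% of that gene's level in acc1-5 and 8.39% in WT, with 1.14 FPKM in acc1-5 and 3.61 FPKM in WT (q = 0.444 in the authors' deposited table). PTAC8 also had a minor form, at 20.4 FPKM in acc1-5 and 32.4 FPKM in WT (q = 0.803 in the authors' deposited table). No second transcript was called.

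The genes that this machinery reads could not be followed. All 133 transcripts of the plastid genome, and the 145 other organelle transcripts, were listed at 0 in both genotypes, and 0 were tested. A listed 0 here says nothing about plastid transcription.

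Related nuclear genes, from lists written with results of these data known, show what else of the plastid gene expression path had lower levels. Among 23 tested genes of other plastid transcription and nucleoid factors, 7 fell and 0 rose, with a median log2 fold change of -0.33. SIB1, which binds sigma factors, fell more than any member of the set, with 20.2 FPKM in acc1-5 (10.6 to 27.4) and 51.2 FPKM in WT (28.5 to 68.1), at a log2 fold change of -1.34 (q = 7.46e-04 in the authors' deposited table). Its relative SIB2 was not called, with 40.4 FPKM in acc1-5 and 31.8 FPKM in WT (q = 0.297 in the authors' deposited table). The RNA-binding proteins CSP41A and CRB fell as well, CSP41A with 137 FPKM in acc1-5 and 247 FPKM in WT and CRB with 202 FPKM in acc1-5 and 430 FPKM in WT. YLMG1-1, linked to nucleoid partitioning, had 65.8 FPKM in acc1-5 and 79.6 FPKM in WT and was not called.

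Of 35 genes for plastid RNA processing and editing, 15 fell and 0 rose, with a median log2 fold change of -0.58. The editing factors CRR21 and OTP86 were low in level, CRR21 with 4.49 FPKM in acc1-5 and 8.31 FPKM in WT and OTP86 with 1.49 FPKM in acc1-5 and 2.77 FPKM in WT. RBP31, an abundant RNA-binding protein, had 320 FPKM in acc1-5 and 581 FPKM in WT. All 3 were called, while the more abundant CP29, with 424 FPKM in acc1-5 and 750 FPKM in WT, was not (q = 0.123 in the authors' deposited table).

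Of 28 tested assembly factors of photosystems and thylakoids outside the set, 15 fell and 0 rose, with a median of -0.59. The largest falls among them by log2 fold change were those of LQY1, PSB27 and PAM68, all of which serve photosystem II. LQY1 had 89.4 FPKM in acc1-5 and 197 FPKM in WT, PSB27 had 226 FPKM in acc1-5 and 430 FPKM in WT, and PAM68 had 34.7 FPKM in acc1-5 and 62.8 FPKM in WT. Their log2 fold changes were -1.14, -0.93 and -0.86 in the authors' deposited table, each with q = 7.46e-04. AT4G01150 was the most abundant uncalled gene of the list, with 602 FPKM in acc1-5 (384 to 821) and 877 FPKM in WT (544 to 1210), at q = 0.0800 in the authors' deposited table. HCF244, which works with HCF173 on psbA translation, had 35.5 FPKM in acc1-5 and 63.7 FPKM in WT and fell too. Its pairing with HCF173 was noticed after the values were seen.

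The nuclear genes of plastid ribosomal proteins were the most uniform list, with 39 of 39 tested genes lower and called, and a median log2 fold change of -0.73. The set of 36 was less uniform, with 20 of 36 called and a median of -0.55, and 9 of its genes lay below the ribosomal median. RPL12-C had the largest absolute log2 fold change of that list, -1.29 in the authors' deposited table. Its levels were 144 FPKM in acc1-5 and 351 FPKM in WT. AT5G24490 and GHS1 followed, at log2 fold changes of -0.99 and -0.96. AT5G24490 had 309 FPKM in acc1-5 and 616 FPKM in WT, and GHS1 had 180 FPKM in acc1-5 and 350 FPKM in WT. The ribosomal genes had levels of 104 to 389 FPKM in acc1-5 and 182 to 698 FPKM in WT, above those of most of the 36, and the difference between the lists was not tested.

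**Figure D4:**
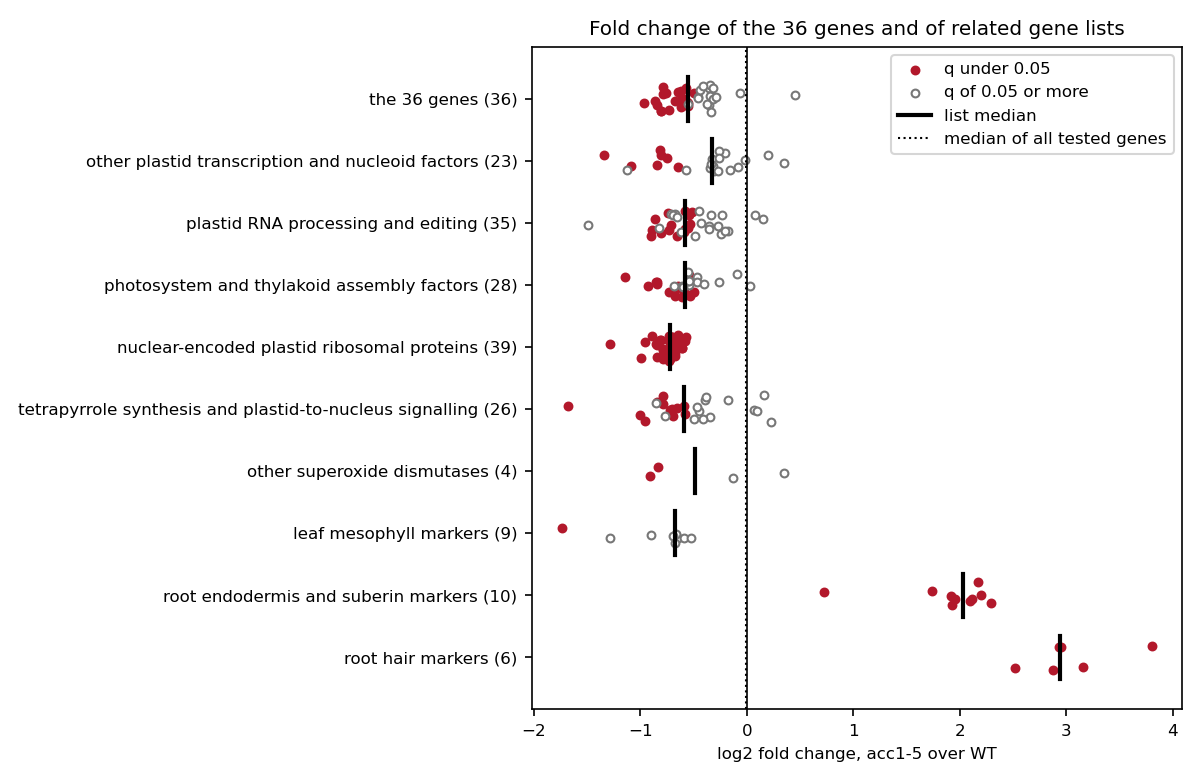
The log2 fold change, acc1-5 over WT, of every tested gene in the set of 36 and in 9 related lists, with the number of tested genes in brackets; filled points have a q-value under 0.05 in the authors' deposited table, open points do not, and the black bar is the list median. Points are shifted up and down at random for legibility; the plastid lists lie mostly left of 0, with medians between -0.73 and -0.33, and the root hair and root endodermis markers lie right of 0, with medians of 2.94 and 2.03.

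The plot of related lists sets the 36 genes beside the tissue markers. The leaf mesophyll markers had a median log2 fold change of -0.67, and the 36 genes one of -0.55. Their bounds were wide: RBCS1A, a small subunit of Rubisco, had 5028 FPKM in acc1-5 (245 to 9817) and 9403 FPKM in WT (0.165 to 28301), and CA1, a carbonic anhydrase and the called one of the list, had 346 FPKM in acc1-5 (156 to 536) and 1156 FPKM in WT (32.5 to 2384). The root hair genes EXPA7, PRP3 and LRX1 stood far on the other side. EXPA7 had 20.1 FPKM in acc1-5 and 1.44 FPKM in WT, PRP3 had 51.5 FPKM in acc1-5 and 5.76 FPKM in WT, and LRX1 had 12.3 FPKM in acc1-5 and 1.59 FPKM in WT. Of the endodermal genes, CYP86A1 had 14.8 FPKM in acc1-5 and 3.01 FPKM in WT, CYP86B1 had 4.88 FPKM in acc1-5 and 1.06 FPKM in WT, and MYB36 had 5.52 FPKM in acc1-5 and 1.22 FPKM in WT. The 36 genes, the mesophyll markers and the root markers moved in the same pair of pooled values, and how far the one follows the others was not tested.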

How the data were processed

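RNA-seq of acc1-5 and WT seedlings was analysed (3 libraries per genotype by the labels), and 42 ChIP and input libraries of the same 48 samples were not analysed here. Per the submitters' processing notes, the tools were Bowtie, TopHat 1.4.0, Cuffdiff 2.1.1 and Cufflinks 2.1.1, with the TAIR10 build. The authors deposited FPKM per transcript, 1 value per genotype with bounds whose confidence level is not given in the sources used here. Columns named ACC1 were read as acc1-5. The authors' deposited log2 fold change is acc1-5 over WT, and their deposited p-value and q-value come from their comparison; per the file headers, the q-value stands beside the p-value of each transcript, and their test statistic, a deposited score, was not used here. How the libraries of a genotype were combined, and whether they are separate plantings, is not stated, so the p-values may measure technical spread.

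Each gene's values are those of its transcript highest in mean FPKM, and a gene was called where tested by the authors with q under 0.05, with no filter on low values. Locus starts, which count from 0 in the files, were raised by 1. Low FPKM values were not whole multiples of a common step: at best 19.9% of acc1-5 and 18.8% of WT values lay within 5% of one. These are the best of many steps tried, and the 10% expected by chance holds for 1 fixed step. No count test was therefore run. With 1 value per genotype, limma, leaving out libraries and a replicate block could not be run, and the q-values named above are the authors'. In 6 tested transcripts, none of them described here, the log2 fold change did not match the FPKM values. The symbols of 35 of the 36 genes, and 145 of 206 names in the lists, were matched in a RefSeq gene table. The members and lists were chosen with earlier results of these data known. Named genes were all 36 members and, from each other list, the 3 called genes with the largest absolute log2 fold change and the uncalled gene with the highest mean FPKM; SIB2, MGP3, HCF244, WHY2 and the genes named in the closing section beyond that rule were chosen after their values were seen. Planned motif and protein comparisons were not run. Calculations used Python 3.11.15 with pandas 2.3.3, numpy 2.4.6 and scipy 1.17.1, and figures matplotlib 3.10.9. The p-value adjustment was tested on simulated p-values, and the choice of 1 transcript per gene on a small made-up example. The other summary steps were not tested in this way.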

Additional observations from a re-analysis of the deposited data

How the results depend on the processing

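The count of 20 genes called lower depended on the threshold: at q under 0.01 it was 11 of the 36 (5.7% of all tested genes were lower at that threshold), and at q under 0.10 it was 24 (11.3% of all tested genes). It was 20 when the authors' p-values were adjusted again over 1 transcript per gene, when a mean of at least 5 FPKM was asked for, and when any transcript of a gene could give the call. The count called higher was 0 under each of these 5 settings. The median log2 fold change stayed between -0.55 and -0.54 with a pseudocount of 1 or 0.1, centring on all tested transcripts, the filter of 5 FPKM, or levels summed over transcripts. The direction of all 36 genes was the same with a pseudocount of 1, with summed transcripts and after centring. No paired analysis was possible because the tables hold 1 value per genotype, and no library could be left out. Read depth is unknown, so no counting interval or detection limit can be given for genes of a few FPKM such as SIG5, PTAC15 and AT5G15700.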

Other observations

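Genes of tetrapyrrole synthesis and of signalling between plastid and nucleus supply chlorophyll and carry the signals in which GUN1 takes part. Of 26 tested genes of that list, 12 fell in acc1-5, 0 rose and 14 were not called, 4 of them with a level above WT, with a median log2 fold change of -0.59. PORA, a protochlorophyllide oxidoreductase of young seedlings, had 8.01 FPKM in acc1-5 and 25.7 FPKM in WT, a log2 fold change of -1.68 (q = 7.46e-04 in the authors' deposited table). CRD1, a cyclase of chlorophyll synthesis, had 348 FPKM in acc1-5 and 699 FPKM in WT, and GUN5, a magnesium chelatase subunit, had 126 FPKM in acc1-5 and 244 FPKM in WT. Both were called, while PORB was not, with 547 FPKM in acc1-5 and 934 FPKM in WT (q = 0.0610 in the authors' deposited table). FC1, a ferrochelatase, had 56.9 FPKM in acc1-5 and 54.4 FPKM in WT and was not called. Of the factors that activate chloroplast genes in the nucleus, GLK2 fell, with 33.3 FPKM in acc1-5 and 52.4 FPKM in WT (q = 0.00962 in the authors' deposited table). GLK1 had 43.1 FPKM in acc1-5 and 48.6 FPKM in WT (q = 0.674 in the authors' deposited table). The light signalling genes HY5, PHYA and PHYB were not called, and the authors' deposited table gives 0.09 for HY5, 0.23 for PHYA and 0.16 for PHYB as log2 fold change. PORA and PTAC15 are close neighbours, with 683 bases between their loci on chromosome 5.

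The tested relatives WHY2, MSD1 and CSD1 were not called. The Whirly and superoxide dismutase genes of the set itself, WHY1, WHY3, FSD2 and FSD3, were not called either. The mitochondrial Whirly gene WHY2 had 38.8 FPKM in acc1-5 and 41.3 FPKM in WT (q = 0.889 in the authors' deposited table). MSD1, the mitochondrial manganese superoxide dismutase, had 231 FPKM in acc1-5 and 181 FPKM in WT (q = 0.25 in the authors' deposited table), and CSD1, the cytosolic copper/zinc enzyme, had 94.2 FPKM in acc1-5 and 103 FPKM in WT (q = 0.838 in the authors' deposited table). FSD1 and CSD2, superoxide dismutases found in chloroplasts, both fell. FSD1 had 867 FPKM in acc1-5 and 1550 FPKM in WT (q = 0.0401 in the authors' deposited table), and CSD2 had 51.8 FPKM in acc1-5 and 97.3 FPKM in WT (q = 0.00349 in the authors' deposited table). CSD3, of the peroxisome, was not tested for too few data. Where each protein acts was not measured here, and a protein can act in more than 1 place. Whether plastid and non-plastid relatives differ as groups was not tested, and these relatives were picked out after their values were seen.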
